A study of Mus musculus with 6 samples.

Results

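This account covers 3 mature microRNAs (miRNAs) of mouse kidney, mmu-miR-192-5p, mmu-miR-194-5p and mmu-miR-215-5p (mmu for mouse, left out from here on), chosen by name from the 1247 mouse miRNAs on the array. The study set kidneys of 20-month-old male C57BL/6 mice (n = 3 arrays) against kidneys of 2-month-old males of the same inbred strain (n = 3 arrays), with no treatment or genetic change named for either age. Total RNA of each preparation was labelled with Cy3 and read on a separate 1-colour Agilent array of miRNA probes. Nothing in the labels says that each preparation came from its own animal, so the p-values here reflect the spread between these preparations, which may be technical. Of the 3 members, 2 were measured well above background on all 6 arrays and could be tested, and miR-215-5p was not well above background on any array.

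The 3 miRNAs belong to 2 seed families whose genes lie side by side. A miRNA guides a silencing complex to messenger RNAs through its seed near the 5′ end. miR-192 and miR-215 carry the same seed and can repress overlapping sets of messages. In mouse mesangial cells miR-192 represses Zeb1 and Zeb2, repressors that act at E-box elements of collagen genes. miR-194 has an unrelated seed but is cut from the same primary transcripts. These miRNAs are abundant in intestine, liver and kidney, and in human cells they respond to p53. In kidney, miR-192 is best known from work on TGF-beta signalling and diabetic fibrosis.

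The mature sequences are shown because miR-192-5p and miR-215-5p, read so differently below, are near copies. They are given 5′ to 3′ from RefSeq (GRCm38.p6) with the seed, bases 2 to 8, in capitals.
miR-192-5p: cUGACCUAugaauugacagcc
miR-215-5p: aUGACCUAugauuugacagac
miR-194-5p: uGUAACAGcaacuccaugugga
Among 1679 mature mouse names in the RefSeq table, the seed UGACCUA was found in miR-192-5p and miR-215-5p (2 names), and GUAACAG in miR-194-5p (1 name). miR-192-5p and miR-215-5p have the same base at 18 of their 21 positions. From miR-192-5p to miR-215-5p the substitutions are C1A, A12U and C20A, with positions counted from the 5′ end. None of these 3 lies in the seed.

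The 4 hairpins are shown because each chromosome pairs a miR-194 gene with one of the seed-sharing genes. The 5p arm of each, the form described here, is in capitals.
Mir194-2: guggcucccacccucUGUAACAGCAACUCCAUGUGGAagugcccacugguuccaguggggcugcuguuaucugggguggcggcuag
Mir192: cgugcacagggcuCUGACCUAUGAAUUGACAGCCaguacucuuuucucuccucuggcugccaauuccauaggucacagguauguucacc
Mir194-1: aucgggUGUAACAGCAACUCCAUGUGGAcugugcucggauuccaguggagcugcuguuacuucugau
Mir215: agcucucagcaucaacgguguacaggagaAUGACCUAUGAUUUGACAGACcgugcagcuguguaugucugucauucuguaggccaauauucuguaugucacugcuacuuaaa
In RefSeq (GRCm38.p6, plus strand) Mir194-2 lies at chr19:6264643-6264728 and Mir192 at chr19:6264844-6264932, with 115 bases between them. The nearest coding genes on either side are Atg2a and Ehd1. Mir194-1 lies at chr1:185313319-185313385 and Mir215 at chr1:185313581-185313692, 195 bases apart and inside the span of Iars2, which encodes a mitochondrial tRNA synthetase. miR-194-5p is identical from both of its hairpins, so its array signal does not say which gene it came from, whereas the 3p arms differ between the hairpins and had probes of their own.

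miR-194-5p stood higher on every 20-month array than on every 2-month array, and the difference did not pass the test over all miRNAs. Levels are log2 values on which 0 is the array's 75th percentile, taken over the 315 probes that every array read well above background. Replicates 1, 2 and 3 of 20-month kidney lay at 1.28, 1.48 and 1.54, against 1.14, 1.10 and 1.21 in 2-month kidney. The groups did not overlap, but the lowest 20-month array stood close to the highest 2-month one. As multiples of that percentile the level was 2.71 ± 0.25 in 20-month kidney and 2.22 ± 0.09 in 2-month kidney (SD, n = 3 each). The log2 difference was 0.28 ± 0.09 (SE, 95% interval 0.06 to 0.51), a ratio of 1.22, with a limma unadjusted p of 0.0207 and a Benjamini-Hochberg adjusted p of 0.104 over the 193 miRNAs tested. Of those 193, 10.4% had non-overlapping groups with the higher values in 20-month kidney and 20.2% with the lower, 25.4% had an unadjusted p under 0.05 in either direction, and 9.84% had one with the higher values in 20-month kidney.

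miR-192-5p, the member studied most in diabetic kidney, overlapped between the ages. The 20-month arrays read 1.99, 2.22 and 2.30, and the 2-month arrays 2.01, 1.91 and 2.16. Replicate 1 of 20-month kidney fell inside the 2-month range, and replicates 2 and 3 lay above it. The level was 4.52 ± 0.49 times the percentile in 20-month kidney and 4.08 ± 0.35 times in 2-month kidney (SD, n = 3 each). The log2 difference was 0.14 ± 0.11 (SE, 95% interval -0.13 to 0.41), with a limma adjusted p of 0.434. The interval reaches from a slight loss to a gain larger than the value measured for miR-194-5p. In whole kidney, fewer cells of a type and less RNA per cell cannot be told apart for any of these levels.

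**Figure D1:**
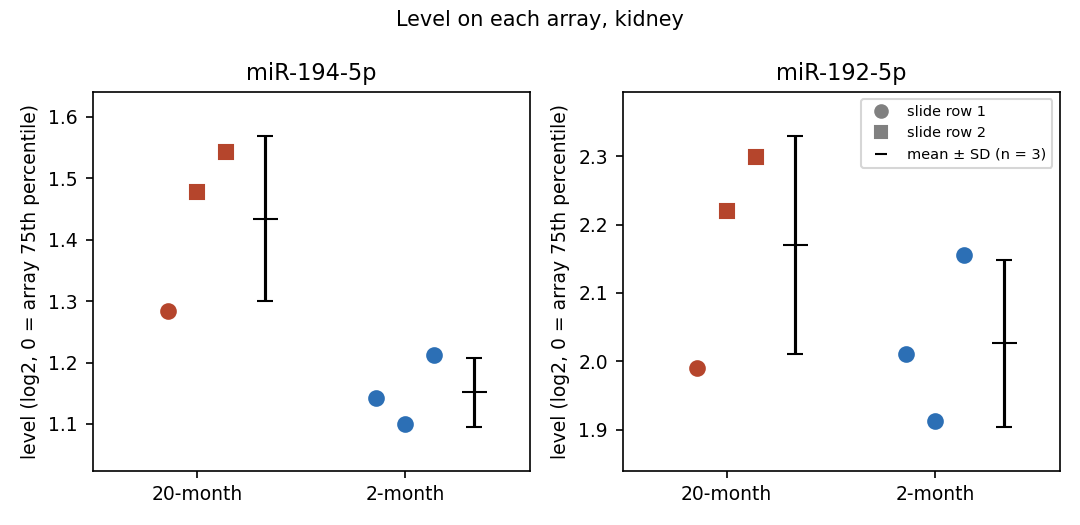
Level of miR-194-5p and miR-192-5p on each array (log2, 0 is the array's 75th percentile of detected probes), with 20-month kidney left of 2-month kidney in each panel. Circles mark arrays of slide row 1 and squares those of slide row 2, and bars give the mean ± SD of n = 3. The 20-month arrays of miR-194-5p lie at 1.28 to 1.54, all above 2-month kidney, and those of miR-192-5p overlap with it.

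The position of the arrays on their slide moved with both results. All 6 arrays shared 1 slide. The 3 arrays of 2-month kidney and replicate 1 of 20-month kidney were in row 1, and replicates 2 and 3 of 20-month kidney in row 2. Against the 2-month mean, miR-194-5p stood at 0.13 on 20-month replicate 1, 0.33 on replicate 2 and 0.39 on replicate 3. miR-192-5p stood at -0.035, 0.19 and 0.27 on the same 3 arrays. When slide row entered the fit as a block, the differences were 0.13 ± 0.12 for miR-194-5p (limma adjusted p = 0.658) and -0.035 ± 0.14 for miR-192-5p (limma adjusted p = 0.953). These blocked values equal those within row 1 alone and rest on 1 array of 20-month kidney. Without that array miR-194-5p stood at 0.36 ± 0.09 and passed the threshold (limma adjusted p = 0.0418), where 20.2% of the tested miRNAs passed, 6.22% with the higher values in 20-month kidney and 14% with the lower. For the row 2 arrays, slide row and age cannot be told apart.

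Both probes of each measured miRNA gave the same direction. The array holds 2 probes per member with 20 spots each. The brighter miR-194-5p probe read 2033, 4072 and 2693 intensity units in 20-month kidney and 2222, 1839 and 1942 in 2-month kidney, before scaling between arrays. The dimmer one read 817, 1644 and 1047 in 20-month kidney and 902, 741 and 817 in 2-month kidney. Replicate 2 of 20-month kidney was the brightest array for both, and it also had the highest 75th percentile of all arrays, 2054 units against 1171 to 1415 on the other arrays. After scaling, the brighter probe differed by 0.29 ± 0.09 and the dimmer by 0.25 ± 0.09 (log2 ± SE, limma adjusted p = 0.109 and 0.153 over 354 probes). Of these probes 5.37% passed the threshold (3.67% higher and 1.69% lower in 20-month kidney), and 24% had an unadjusted p under 0.05.

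For miR-192-5p the brighter probe read 3272, 6898 and 4561 units in 20-month kidney and 4109, 3259 and 3848 in 2-month kidney. Its dimmer probe read 1384, 2672 and 1753 units in 20-month kidney and 1596, 1270 and 1458 in 2-month kidney. Their scaled differences were 0.13 ± 0.12 and 0.18 ± 0.09 (log2 ± SE, limma adjusted p = 0.509 and 0.328). The distance between the probes of 1 miRNA was steady from array to array, at 1.24 to 1.40 (log2) for miR-192-5p and 1.25 to 1.36 for miR-194-5p. The standard error of a probe's mean over its spots was 0.844% to 2.26% for miR-192-5p and 0.914% to 2.87% for miR-194-5p. Between arrays of a group, the SD of the miR-192-5p level was 0.16 in 20-month kidney and 0.12 in 2-month kidney (log2), and that of miR-194-5p was 0.13 in 20-month kidney and 0.06 in 2-month kidney.

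The distance between miR-194-5p and miR-192-5p, taken within each array, does not depend on any constant by which an array is scaled. It was -0.71, -0.74 and -0.76 (log2) on the 20-month arrays and -0.87, -0.81 and -0.94 on the 2-month arrays. The groups did not overlap, and 20-month replicate 1, in the slide row of the 2-month arrays, had the smallest distance. The mean was -0.74 ± 0.02 in 20-month kidney and -0.88 ± 0.07 in 2-month kidney (SD, n = 3 each), a difference of 0.14 ± 0.04 (SE). An exact two-sided permutation test over the 6 arrays gave p = 0.1, the smallest that 3 arrays against 3 allow. Any groups of 3 arrays that do not overlap give that p. Of single tested miRNAs, 10.4% had non-overlapping groups with the higher values in 20-month kidney and 20.2% with the lower. How many other pairs of miRNAs have distances that do not overlap was not counted. Within slide row 1 the difference in the distance of the members was 0.17. The probes of the 2 miRNAs differ, so the sign of the distance is not a ranking of their abundance.

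**Figure D2:**
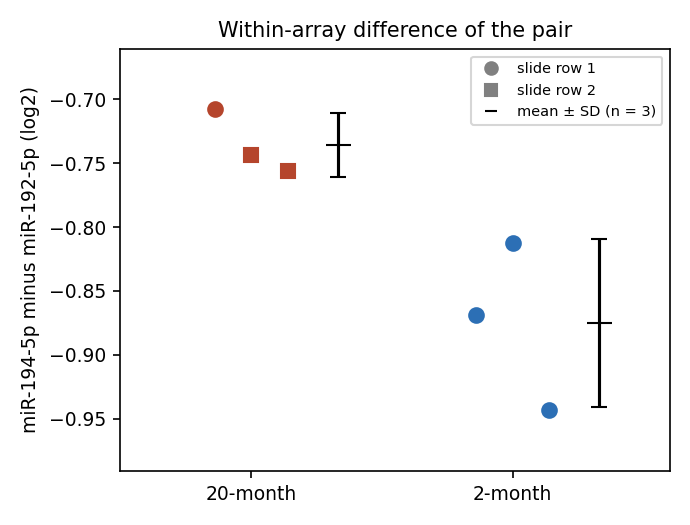
Within-array difference of miR-194-5p minus miR-192-5p (log2) on each array, with 20-month kidney left and 2-month kidney right. Circles are slide row 1, squares slide row 2, and bars the mean ± SD of n = 3. The 20-month arrays lie between -0.76 and -0.71, all above the 2-month arrays at -0.94 to -0.81.

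miR-215-5p, the seed twin of miR-192-5p, was not well above background at either age. The summed signal of its 2 probes was 1.15, 0.49 and 0.65 intensity units in 20-month kidney and -3.74, -3.18 and -2.07 in 2-month kidney, after background subtraction. The groups of these sums did not overlap, and what part of that is signal was not tested. On 1 of the 2 probes the groups did overlap, at 0.19, 2.12 and 0.25 units in 20-month kidney and -1.75, 0.29 and 0.38 in 2-month kidney. On the other probe they did not. The SD of single spots within a miR-215-5p probe was 3.12 to 8.49 units. Among the 3p arms not well above background on any array, the sums of miR-194-1-3p did not overlap either. They lay the other way, at -5.09 to -2.37 units in 20-month kidney and -1.88 to 6.47 in 2-month kidney. Those of miR-194-2-3p and miR-215-3p overlapped. The share over all such miRNAs was not taken. Across the arrays the median of the negative control spots was 2.36 to 3.34 units, and 0 of the spots of either miR-215-5p probe were well above background. The level therefore has only a bound: it lay under the lowest signal of a probe well above background, which was -5.80 to -5.03 (log2) on the 6 arrays. No fold change is given, since neither age was measurable. In the authors' deposited table miR-215-5p stood at -9.49, -10.1 and -9.20 in 20-month kidney and -9.74, -9.21 and -9.21 in 2-month kidney (log2), the values that the scanner software's placeholder of 0.1 units gives.

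The same arrays read miR-192-5p, which differs from miR-215-5p at the 3 positions printed above, on 2 probes of its own. Its summed signal was 4655, 9570 and 6314 units in 20-month kidney and 5704, 4530 and 5307 units in 2-month kidney. That of miR-194-5p was 2850, 5716 and 3740 units in 20-month kidney and 3124, 2579 and 2759 units in 2-month kidney. At both ages all spots of at least 1 probe of each were well above background (100%), while 0 spots of the miR-215-5p probes were.

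The opposite arms of the hairpins were at or under the detection limit. miR-192-3p, from the other strand of the Mir192 hairpin, was well above background on 2 of 3 arrays of 20-month kidney and 2 of 3 of 2-month kidney, and so was not tested. Its summed signal was 39.8, 74.6 and 51.5 units in 20-month kidney and 51.1, 45.5 and 48.2 units in 2-month kidney. On the scaled log2 axis that was -4.88, -4.78 and -4.64 in 20-month kidney and -4.79, -4.72 and -4.63 in 2-month kidney, and the groups overlapped. 0 of the 6 arrays read miR-194-1-3p, miR-194-2-3p or miR-215-3p well above background. Their summed signals ranged from -5.09 to -2.37, 11.4 to 14.2 and -3.29 to -0.79 units in 20-month kidney, and from -1.88 to 6.47, 13.1 to 23.7 and -6.51 to -0.67 units in 2-month kidney. Neither 3p arm of miR-194 was well above background, although the brighter miR-194-2-3p probe read 11.8 to 15.2 units in 20-month kidney and 11.8 to 15.8 units in 2-month kidney, above the negative control medians. Without a measured level for both, the array gives no reading of how the 2 miR-194 genes share its output.

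**Figure D3:**
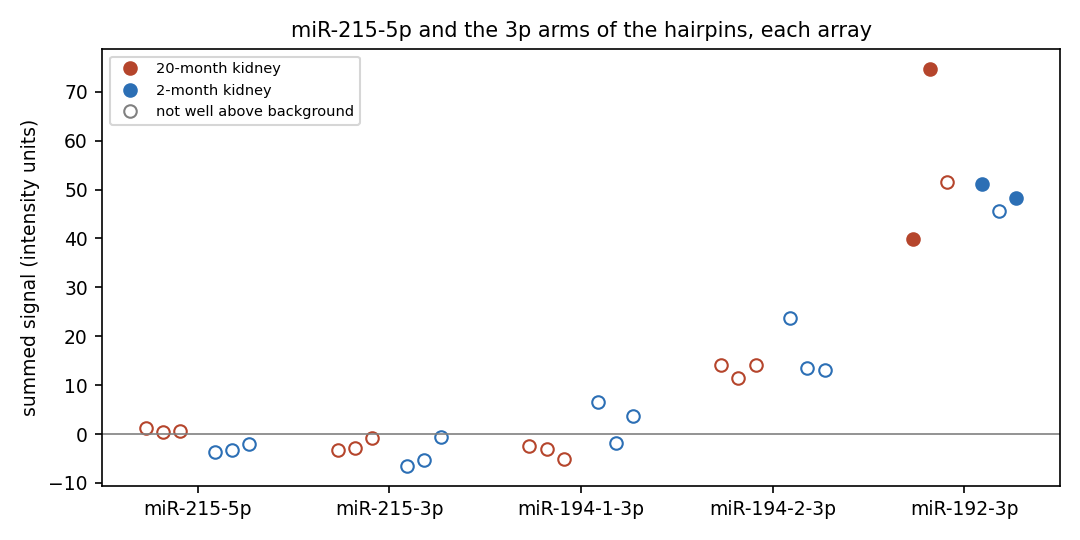
Summed signal (intensity units, not scaled between arrays) of miR-215-5p and the 3p arms on each array, with 20-month kidney left of 2-month kidney for each miRNA. Open circles were not well above background. miR-215-5p stays between -3.74 and 1.15 units, while miR-192-3p reads 39.8 to 74.6 units and is above background on 4 of the 6 arrays.

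Set against all tested miRNAs, both measured members had differences above the median. That median over the 193 miRNAs was -0.08 (log2), and 33.7% had a positive difference. The sign of the median belongs to the main scaling: it was 0.12 with no scaling at all, 0.33 with the percentile taken over all probes, 0.06 with the median over detected probes, 0.03 in the authors' values and 0.0014 with quantile normalization. A larger positive difference than that of miR-194-5p was found for 19 miRNAs, and 30 had a larger one than miR-192-5p. By limma unadjusted p, 37 miRNAs were ahead of miR-194-5p and 108 ahead of miR-192-5p. In all, 8 miRNAs rose (4.15%) and 7 fell (3.63%) in 20-month kidney at an adjusted p under 0.05, together 7.77% of those tested. By limma 0 of the 2 tested members were among them, and before adjustment 1 of them, miR-194-5p, had a p under 0.05. Its difference lay 0.37 and that of miR-192-5p 0.23 above the median difference of all tested miRNAs.

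**Figure D4:**
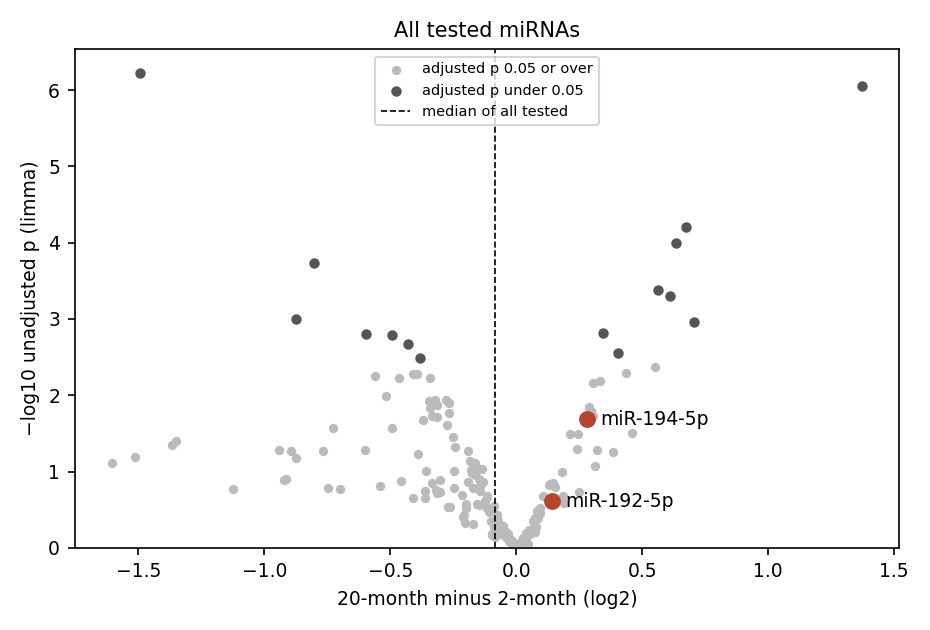
Difference of 20-month minus 2-month kidney (log2) against −log10 of the limma unadjusted p for 193 miRNAs. Dark points pass an adjusted p of 0.05, red points are the measured members, and the dashed line is the median of -0.08. miR-194-5p at 0.28 and miR-192-5p at 0.14 both lie to its right among the points that do not pass.

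The miRNAs whose levels ran most like those of the members were compared over the 6 arrays, which share a slide and a scaling. The difference between the ages was left in the levels. An age difference like that of a member therefore favours a place on its list and is no separate result. Closest to miR-194-5p were miR-130a-3p (Pearson r = 0.991), miR-1839-5p (0.973), miR-29c-5p (0.965), miR-214-3p (0.948) and miR-677-3p (0.932). Of these miR-29c-5p, the opposite arm of a collagen-repressing miRNA, rose by 0.61 ± 0.09 (log2 ± SE, limma adjusted p = 0.0136, but 0.0864 without 2-month replicate 1, 0.0731 without 2-month replicate 2, 0.106 in the fit that holds slide row and 0.364 with normexp background correction), and miR-130a-3p stood at 0.30 ± 0.10 without passing (limma adjusted p = 0.10). Closest to miR-192-5p were let-7a-5p (r = 0.945), miR-203-3p (0.944), miR-30a-3p (0.944), miR-677-3p (0.940) and miR-1839-5p (0.938), with differences of 0.09, 0.15, 0.07, 0.18 and 0.24 in that order. Of these 5, 0 passed by limma, and before adjustment 0 had a p under 0.05. Of all tested miRNAs 7.77% passed and 25.4% had such a p. Among the 5 closest to miR-194-5p, miR-29c-5p, miR-214-3p and miR-130a-3p had an unadjusted limma p under 0.05, and miR-1839-5p and miR-677-3p did not. miR-1839-5p and miR-677-3p were thus on both lists. The members themselves correlated at 0.873, which placed miR-192-5p at rank 15 among the miRNAs most like miR-194-5p, and miR-194-5p at rank 23 for miR-192-5p.

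Of a list of 8 other kidney-enriched miRNAs, all 8 were tested singly, and the list as a set was not tested. By limma 0 of the 8 passed, where 7.77% of all tested miRNAs did, and before adjustment 0 had a p under 0.05, where 25.4% did. A count of 0 among 8 is near that first share and is no result about the list. Their median difference was -0.07, close to the -0.08 of all tested miRNAs, and it turned positive under 4 of 17 alternatives (0.35 with the 75th percentile over all probes). miR-200a-3p, which represses Zeb factors and so helps to keep epithelial identity, stood at -0.16 ± 0.08 (limma adjusted p = 0.264), and from the Hox gene clusters miR-196b-5p at -0.19 ± 0.11 (0.328) and miR-10b-5p at -0.16 ± 0.09 (0.292). The members were on the positive side where 6 of these 8 were on the negative side in the main setting. Of all tested miRNAs 33.7% had a positive difference, so most of them were on the negative side too. Whether the members differ from the list was not tested.

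Of a list of p53-induced miRNAs (the members themselves respond to p53 in human cells), 7 of 8 were tested and 1 rose. Of all tested miRNAs 4.15% rose, and a count of 1 is no result about the list. miR-34a-5p, a direct p53 target, rose by 0.71 ± 0.12 (limma adjusted p = 0.0235). It did not pass without 2-month replicate 2 (0.0753), 2-month replicate 3 (0.09) or 20-month replicate 2 (0.0592), nor in the fit that holds slide row (0.143), as limma adjusted p. miR-143-3p stood at -0.27 ± 0.09 (limma adjusted p = 0.120) and miR-145a-5p at -0.25 ± 0.09 (0.149), both matured with the help of p53 in human cells, and miR-34c-5p was not well above background on any array. The list's median was 0.04. It was 0.24 with no scaling at all, 0.45 with the percentile taken over all probes, 0.18 with the median over detected probes, 0.15 in the authors' values and 0.07 with quantile normalization, and it was -0.05 once slide row was a block. Leaving out 1 array gave -0.0026 (without 2-month replicate 2) to 0.08 (without 20-month replicate 1).

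In a list linked to TGF-beta and renal fibrosis, the setting in which miR-192 is best known, 7 of 11 miRNAs were tested, 3 rose and 1 fell. Of all tested miRNAs 4.15% rose and 3.63% fell. The 3 that rose are all of the miR-29 family, so the count is no result about the list as a whole. The collagen-repressing miR-29b-3p rose by 0.68 ± 0.07, miR-29a-3p by 0.63 ± 0.07 and miR-29c-3p by 0.56 ± 0.08 (limma adjusted p = 0.00399, 0.00495 and 0.0135). miR-141-3p, which represses Zeb factors, fell by 0.38 on the log2 scale (limma adjusted p = 0.0415), but it stood at 0.031 with the percentile over all probes, and it passed under 6 of 17 alternatives and in 1 of the 6 fits that leave out 1 array, the one without 20-month replicate 1. miR-216a-5p and miR-217-5p, which act downstream of miR-192 in mouse mesangial cells, and miR-377-3p and miR-382-5p were not well above background on any array. miR-29c-3p did not pass without 2-month replicate 1 (limma adjusted p = 0.0864) or 2-month replicate 2 (0.0731), and miR-29a-3p and miR-29b-3p passed in all 6 such fits. In the fit that holds slide row miR-29b-3p passed (limma adjusted p = 0.0454), and miR-29a-3p (0.0637), miR-29c-3p (0.106) and miR-141-3p (0.205) did not. The list's median was 0.08. It was 0.28 with no scaling at all, 0.49 with the percentile taken over all probes, 0.22 with the median over detected probes, 0.19 in the authors' values, 0.05 with quantile normalization, 0.019 in the slide row fit, 0.04 without 2-month replicate 2 and 0.018 without 20-month replicate 2. 0 of its members passed by limma without scaling (lowest adjusted p = 0.123).

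The summed levels of some markers of other cells did not overlap between the ages, and those of others did. Their part in the members' levels was not tested. Summed levels are in multiples of the 75th percentile and were taken under the main scaling alone. Other scalings shifted the median difference over all tested miRNAs by up to 0.41. The erythroid miR-451a stood at -0.34 ± 0.08 (log2 ± SE) in the main setting. Whether the sums keep their direction under other scalings or with slide row as a block was not tested. The 2 erythroid miRNAs on the array summed to 6.31 to 7.11 in 20-month kidney and 8.29 to 9.31 in 2-month kidney. The 5 leukocyte miRNAs summed to 0.754 to 0.945 in 20-month kidney and 0.592 to 0.681 in 2-month kidney. The 5 mesenchymal and smooth muscle miRNAs summed to 2.35 to 2.57 in 20-month kidney and 2.06 to 2.15 in 2-month kidney, and 2 of them rose, miR-199a-5p by 0.34 ± 0.06 and miR-199a-3p by 0.40 ± 0.09 (limma adjusted p = 0.0258 and 0.0391). These 2 were named after their values were seen, each passed in 2 of the 6 fits that leave out 1 array, and in the fit that holds slide row neither passed (limma adjusted p = 0.205 and 0.229). With normexp background correction neither passed (limma adjusted p = 0.365 and 0.142), and over 17 alternatives miR-199a-5p passed in 11 and miR-199a-3p in 7. The 5 did not run one way: miR-143-3p and miR-145a-5p, which are also in the p53 list, had negative differences, given above, with lower values on every 20-month array. Under the main scaling the groups of these 3 sums did not overlap. Of single tested miRNAs, 10.4% had non-overlapping groups with the higher values in 20-month kidney and 20.2% with the lower. By limma 0 of the 2 erythroid and 0 of the 4 tested leukocyte miRNAs passed, and before adjustment 2 of each had a p under 0.05. Of all tested miRNAs 7.77% passed, 4.15% with the higher values in 20-month kidney, and 25.4% had an unadjusted p under 0.05. The sums of 2 endothelial miRNAs (6.65 to 7.25 in 20-month kidney, 6.23 to 6.86 in 2-month kidney) and of 4 kidney epithelium miRNAs, 3 of them also in the kidney-enriched list (14.2 to 15.7 in 20-month kidney, 14.5 to 16.2 in 2-month kidney) overlapped. Of the endothelial pair, miR-126a-5p was not well above background on any array, so that sum rests on miR-126a-3p. miR-122-5p, which marks liver, another organ rich in miR-192 and miR-194, was not well above background on any array. Neither were the striated muscle miRNAs miR-133a-3p and miR-206-3p, while miR-1a-3p of muscle was on 4 arrays.

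The arrays differed in ways that touch every miRNA. They detected 201, 206 and 177 miRNAs in 20-month kidney and 209, 193 and 200 in 2-month kidney. Over the tested miRNAs, pairs of 20-month arrays correlated at 0.972 to 0.989 and pairs of 2-month arrays at 0.998. Replicate 1 of 20-month kidney correlated at 0.991 to 0.993 with the 2-month arrays, with which it shares slide row 1, and at 0.983 and 0.972 with replicates 2 and 3 of its own age. No spot was saturated (0 of 49880 on each array), and the number of arrays limits the precision.

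The sign of the miR-194-5p difference did not depend on the processing tried, and its size did. Over 17 alternatives that combined the probes in other ways, scaled or filtered the arrays differently or added a block, it ranged from 0.13 to 0.70, positive in all 17, with limma adjusted p from 0.0514 (quantile normalization) to 0.658 (slide row as a block). Other scalings shifted the median difference over all tested miRNAs by up to 0.41, and relative to that median miR-194-5p stood at 0.37 under the main scaling and under the percentile over all probes, 0.38 under quantile normalization and 0.36 with normexp background correction, but at 0.19 with the slide row block. miR-192-5p ranged from -0.035 to 0.56 and was positive in 15 of 17. Its negative values were those with slide row as a block and within row 1.

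**Figure D5:**
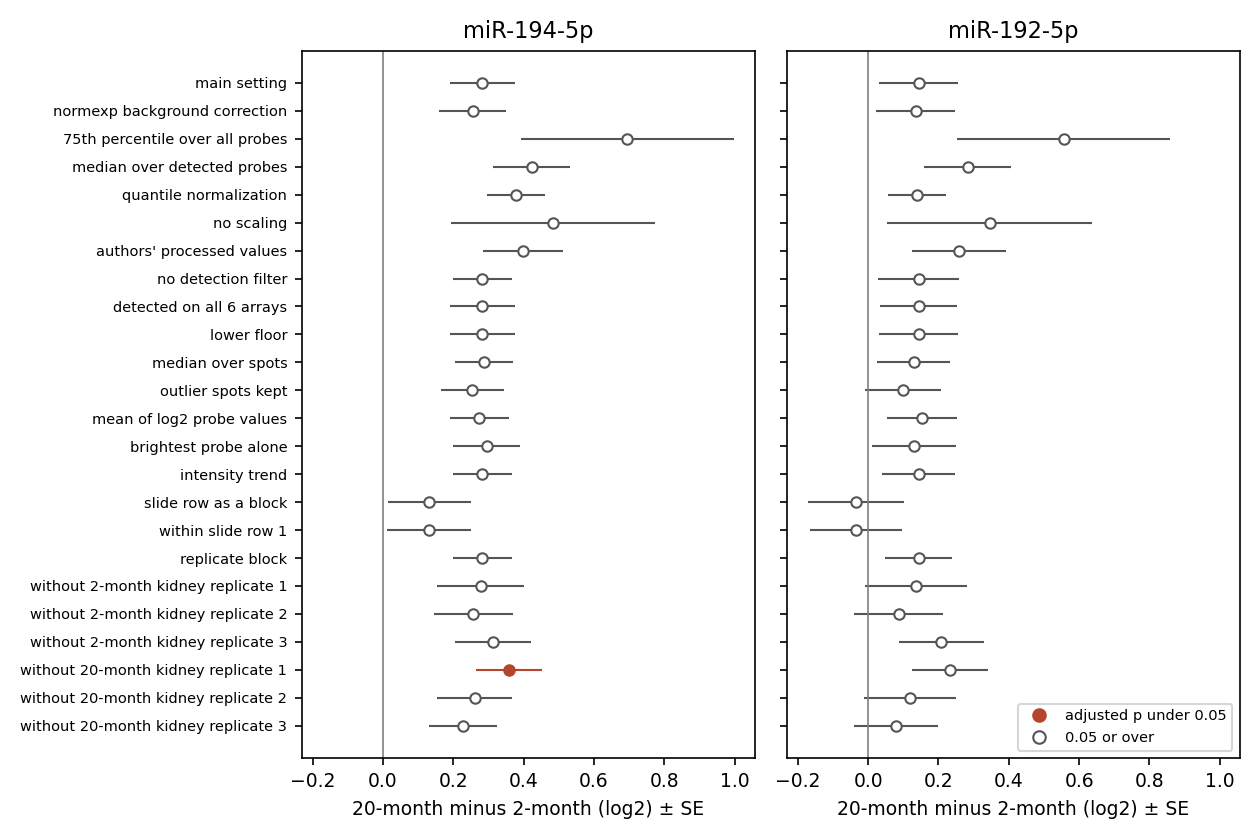
Difference of 20-month minus 2-month kidney (log2 ± SE) for miR-194-5p and miR-192-5p under the main setting and each alternative. Filled red points have a limma adjusted p under 0.05. The single filled point is miR-194-5p without 20-month replicate 1, at 0.36, and miR-192-5p is below 0 in the settings that take slide row into account.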

How the data were processed

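Per the file headers, the arrays were read with Agilent Feature Extraction 11.5.1.1. The deposited spot intensity was background-subtracted by that software and not scaled between arrays, and deposited flags mark outlier spots and spots well above background. The authors' deposited table on a log2 scale equalled log2 of the software's total signal less 1 constant per array (largest departure 1.02e-05 over 1247 miRNAs), so its scale and direction are known; what set the constant was not settled here. Column medians were -10.1 to -9.20.

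Spots without a feature outlier flag were averaged per probe, scaled to the array's 75th percentile (315 probes above background on all 6 arrays), and summed per miRNA. Values were floored at -5.22 before testing (log2). A probe was taken as above background if the software flagged over 50% of its remaining spots. The 193 miRNAs with such a probe on all 3 arrays of an age were tested with limma 3.58.1 in R 4.3.3 (Benjamini-Hochberg, threshold 0.05). The fit was checked on simulated data with independent noise and no slide row effect. That check therefore does not cover how slide row bears on these tests. Arrays were counted as separate samples because the labels list them so. Pairs of 1 age differed beyond spot noise in 58.7% to 80.6% of detected probes and pairs across ages in 65.4% to 80.6%, which does not tell separate animals from repeated labelling. The array files hold no mean raw signal, so normexp (offset 50) used the median spot signal. The text names the members, their opposite arms, the 5 tested miRNAs most correlated with each member, and from each list those past the threshold and the 3 with the smallest p; the members, lists and this rule were chosen with earlier results of these data known. 4 newer names were matched to older array names through RefSeq synonyms; miR-486a-5p had no match. Sequences of all 7 arms were found in RefSeq. Figures used matplotlib 3.10.9.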

Additional observations from a re-analysis of the deposited data

How the results depend on the processing

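Counts of miRNAs past the limma threshold, 8 higher and 7 lower in 20-month kidney, became 4 and 0 with normexp background correction (27 at an unadjusted p under 0.05), 18 and 3 with the median over detected probes, 13 and 1 with quantile normalization, 1 and 1 without scaling, 4 and 2 without a detection filter, 2 and 3 with slide row as a block and 10 and 0 in the authors' values (39 at an unadjusted p under 0.05). Leaving out 1 array gave 3 to 12 higher and 2 to 27 lower (higher and lower counts were 4 and 2 without 2-month replicate 1, 3 and 2 without 2-month replicate 2, 6 and 2 without 2-month replicate 3, 12 and 27 without 20-month replicate 1, 5 and 4 without 20-month replicate 2, and 11 and 12 without 20-month replicate 3), 0.23 to 0.36 for miR-194-5p (past the threshold without 20-month replicate 1), 0.08 to 0.23 for miR-192-5p and 0.11 to 0.17 for the distance between them. miR-192-5p turned to -0.035 with slide row as a block and within row 1; the cause was not tested. Arrays of the same replicate number share only that number (correlations of deviations 0.12, -0.58 and 0.31 for numbers 1, 2 and 3, so not every array ran closest to its own number), and with the replicate number as a block 2 miRNAs were higher and 1 lower, with miR-194-5p at 0.28 (limma adjusted p = 0.130) and miR-192-5p at 0.14. With it, miR-29a-3p (limma adjusted p = 0.0533), miR-29c-3p (0.0706), miR-29c-5p (0.0630), miR-199a-5p (0.0790), miR-199a-3p (0.0851), miR-141-3p (0.102) and miR-34a-5p (0.0790) did not pass and miR-29b-3p did (0.0449). The distance between the members ranged from 0.12 to 0.24 over 9 alternatives. Comparisons with miR-215-5p could not be fitted, since it was not well above background. No kidney-enriched miRNA passed under any of the alternatives (0), and miR-34a-5p did not pass without scaling, without a detection filter or with either block. Signal over background limits miR-215-5p and the 3p arms, not miR-192-5p or miR-194-5p, and a fit that leaves 1 array of 20-month kidney in row 1 assumes that it varies like the 2-month arrays.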
